A study of Arabidopsis thaliana with 8 samples.

Results

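The mRNAs described here encode cytosolic 60S ribosomal proteins of the families L3 to L19, the lower-numbered proteins of the large subunit. They were chosen by name, as the Arabidopsis genes whose names place them in these families, and the rule uses no measured value. The list holds 55 genes in 20 families, of which 35 genes in 16 families were measured, each by 1 probe set assigned to no other gene. Of the other 20 genes, 4 were read only by a probe set shared with a paralog (the L6 pair AT1G74050 and AT1G74060 and the L9 pair AT1G33120 and AT1G33140), and 16 had no probe set in the annotation used, so that the families L3, L5, L10 and L11 were not analysed here. All arrays together held 22653 features, in which probe sets assigned to the same single gene were averaged.

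A cytosolic ribosome carries a single copy of nearly all of its proteins, whereas the Arabidopsis genome holds several paralogous genes for almost every family, so that one position in the ribosome can be filled from different mRNAs. Ribosomal protein mRNAs are among the most abundant messages of growing tissue, and their movement between polysomes and the non-translated pool is a known response of plants to stress. In the families described here, L4 and L17 line the tunnel through which the nascent polypeptide leaves, L12 lies at the base of the stalk that receives the elongation factors, L10a forms the flexible arm near the site where spent tRNA leaves, and L19 takes part in a bridge to the small subunit.

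The study asked how a heat shock changes the total amount and the polysome association of individual mRNAs. Arabidopsis thaliana seedlings of the Columbia ecotype, 7 days old and otherwise untreated, were held at 38°C for 45 min or taken straight from growth at 22°C, and the RNA of whole seedlings was hybridised to 8 ATH1 arrays. The 4 groups were total mRNA after heat (TOT38), total mRNA of control seedlings (TOT22), polysome-bound mRNA after heat (PB38) and polysome-bound mRNA of control seedlings (PB22), with 2 biological replicates each. Polysome-bound RNA came from the heavy fractions of a sucrose gradient, without separation of organs or cell types, and total RNA of the same number and temperature came from the same seedling samples. In whole seedlings, fewer cells of a type and less RNA per cell cannot be told apart.

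Values were log2 signals. The mean over all probe sets was 5.3 and 5.25 in the PB38 arrays and between 6.15 and 6.18 in the other 6, because the authors had scaled the PB38 values down by the polysome content left after heat. That factor was kept in the heat effects, and it was divided out wherever polysome-bound and total mRNA were set against each other, so that 0 there is the average of the array. The heat shock protein gene AT1G53540 averaged 14.01 in TOT38 and 4.12 in TOT22, as the labels require, and the green tissue marker AT2G39730 (Rubisco activase) had a heat effect of −0.11 in total mRNA. Of 4 green tissue markers only this 1 had a probe set of its own here, and none of the 5 root markers or the 2 seed and pollen markers had one, so the share of roots in the seedlings was not checked.

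Heat lowered the polysome-bound mRNA of nearly the whole group. Of the 35 mRNAs, 29 fell in PB38 against PB22 by at least 2-fold at an adjusted p under 0.05 (limma, Benjamini-Hochberg adjustment over all features, used throughout), and none rose. Over all features 37.0% fell and 2.07% rose by the same rule. The median change of the 35 was −1.63 on the log2 scale, against −0.85 over all features. With the factor divided out, 10 of the 35 fell by 2-fold against 6.51% of all features, and their median was −0.76 against 0.02. Without the 2-fold requirement, and with the factor kept, all 35 fell, as did 79.5% of all features, and none rose, where 3.02% did. The estimate was below 0 in all 35, and in 93.2% of all features.

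**Figure D1:**
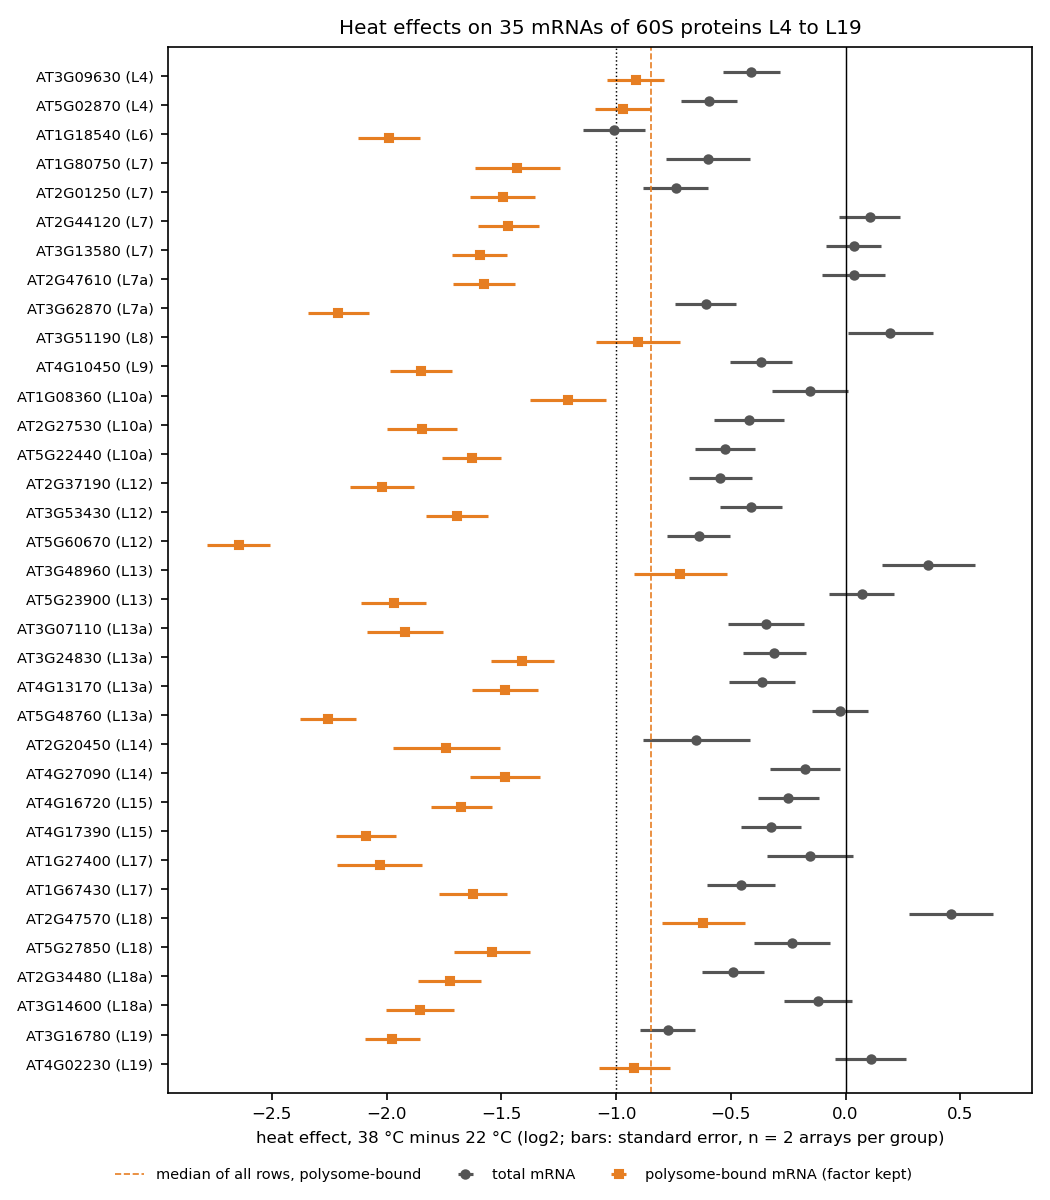
Heat effects of the 35 mRNAs by family in polysome-bound and in total mRNA (x axis, log2 of 38°C over 22°C; points are estimates from 2 arrays a group, bars are standard errors, squares polysome-bound and circles total mRNA; the dotted line marks a 2-fold fall and the dashed line the polysome-bound median of all features). The polysome-bound estimates all lie below 0 and 29 pass the 2-fold rule, whereas in total mRNA 1 does. The polysome-bound effects keep the authors' factor, which lowers all features, and the total-mRNA effects hold no such factor.

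The largest fall on polysomes was that of AT5G60670, 1 of 3 measured mRNAs for the stalk-base protein L12. Its signal was 8.83 and 8.80 in PB38, against 11.56 and 11.36 in PB22, and 10.33 and 10.51 in TOT38, against 11.10 and 11.02 in TOT22. Thus PB38 stood at 16.0% of PB22 (log2 change −2.65, SE 0.14, adjusted p = 5.6e-05), and TOT38 at 64.2% of TOT22. AT5G48760 (L13a), whose human counterpart can also leave the ribosome to silence inflammatory mRNAs, had 8.56 and 8.41 in PB38, against 10.70 and 10.78 in PB22. In total RNA the same gene read 10.20 and 10.16 in TOT38 and 10.21 and 10.20 in TOT22, so that the groups touched at 10.20 (adjusted p = 0.895), whereas the polysome-bound groups lay far apart (change −2.26, SE 0.12, adjusted p = 6.9e-05). Next came AT3G62870 (L7a), with 10.38 and 10.37 in PB38 against 12.47 and 12.70 in PB22 (change −2.21, SE 0.13, adjusted p = 8.7e-05).

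The 6 mRNAs that missed the 2-fold rule on polysomes were both L4 mRNAs, AT4G02230 of L19 and 3 dim ones. The L4 mRNA AT3G09630 had 10.49 and 10.54 in PB38 against 11.34 and 11.52 in PB22, a change of −0.91 (SE 0.13, adjusted p = 0.000798). Its paralog AT5G02870 had 10.73 and 10.65 in PB38 against 11.67 and 11.65 in PB22, a change of −0.97 (SE 0.12, adjusted p = 0.000566). Both L4 estimates lay close to the median of all features (−0.85), and far above that of the 35. AT4G02230 fell by 0.92 (adjusted p = 0.00162). The dim ones, AT3G51190 (L8), AT3G48960 (L13) and AT2G47570 (L18), had a mean under 6 in each of the 4 groups, and their changes on polysomes ran between −0.91 and −0.62. With the factor divided out AT3G48960 had an effect of 0.15.

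In total mRNA, where no factor applies, the group moved less. Its median effect was −0.345, against −0.762 on polysomes with the factor divided out. Only AT1G18540, the 1 measured mRNA of L6, passed the 2-fold rule downward, where 7.07% of all features did, and none of the 35 rose, where 4.62% did. The signal of AT1G18540 was 10.79 and 10.93 in TOT38, against 11.79 and 11.95 in TOT22, and 10.29 and 10.26 in PB38, against 12.18 and 12.35 in PB22. In total mRNA that was a change of −1.01 (SE 0.13, adjusted p = 0.00293), or 49.6% of the 22°C level. The call did not hold without TOT38 replicate 1 or TOT22 replicate 2, nor when the arrays were centred on their medians, which raised the total-mRNA effect of all features by about 0.2.

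Without the 2-fold requirement 9 of the 35 fell in total mRNA, against 14.5% of all features: AT5G02870 (L4), AT1G18540 (L6), AT2G01250 (L7), AT3G62870 (L7a), AT5G22440 (L10a), AT2G37190 and AT5G60670 (L12), AT2G34480 (L18a) and AT3G16780 (L19). AT3G16780 had 8.81 and 8.90 in TOT38 against 9.64 and 9.62 in TOT22 (change −0.78, SE 0.12, adjusted p = 0.00507). AT2G01250, the L7 mRNA with the largest fall of its family, had 11.52 and 11.30 in TOT38 against 12.13 and 12.17 in TOT22 (change −0.74, SE 0.14, adjusted p = 0.0111). In each of the 9 the 2 heated arrays lay below the 2 control arrays, which adds no support, since the same arrays gave the calls. Estimates were below 0 in 27 of the 35, where 47.4% of all features had one, and the median was −0.34 against 0.03 over all features.

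To compare the changes, the total-mRNA effect of each gene was subtracted from its polysome-bound effect with the factor divided out. A value below 0 means that the polysome-bound signal fell by more than the total signal, relative to the average of the array. The estimate was below 0 in 31 of the 35, where 48.8% of all features were, and the median was −0.42 against 0.01. In the fit with 1 mean per group no feature of the 22653 passed in either direction (0% of all features). At an unadjusted p under 0.05 the same limma fit gave 15 of the 35 below 0, against 3.45% of all features, and 1 above, against 2.39%. With the seedling sample as a block, which uses that the total and polysome-bound RNA of a number came from the same seedlings, 6 of the 35 passed below 0, against 0.958% of all features, and none above, against 0.384%. None of the 35 passed in that fit when any 1 of the 4 heated arrays was left out, and between 3 and 6 did without 1 of the 4 control arrays.

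**Figure D2:**
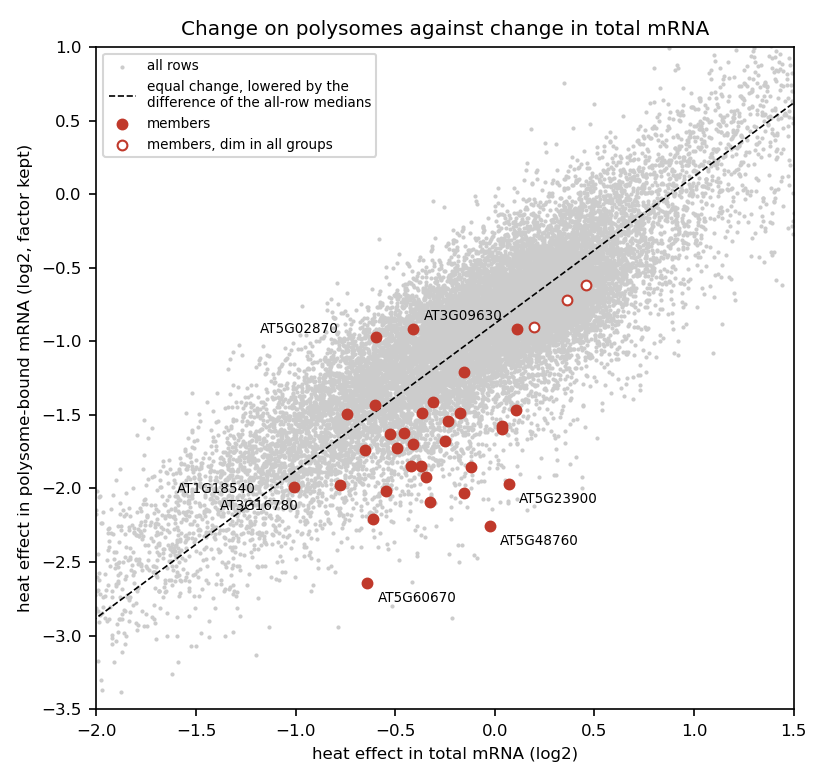
Heat effect in polysome-bound mRNA (y axis, log2, authors' factor kept) against the heat effect in total mRNA (x axis, log2) for all features (grey) and the 35 mRNAs (red; open, dim in all groups); features beyond the axes are not drawn. The dashed line marks an equal change lowered by the difference of the all-feature medians; 31 of the 35 had an estimate of the difference below 0, and both L4 mRNAs lie above the line.

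The 6 mRNAs came from 6 families, L7, L12, L13, L13a, L15 and L17. Values per replicate set heated against control samples of the same number, which the labels do not describe as one experiment. AT5G48760 (L13a) had the lowest difference, −1.29 in the replicates numbered 1 and −1.44 in those numbered 2 (mean −1.36, SE 0.15, adjusted p = 0.0129 with the block and 0.723 without). AT5G23900 (L13) had −0.93 and −1.42 (mean −1.17, adjusted p = 0.0242 with the block and 0.723 without). These 2 had nearly equal total levels at both temperatures, and for AT5G23900 the arrays read 10.55 and 10.57 in TOT38 against 10.57 and 10.41 in TOT22, while PB38 read 8.90 and 8.63 against 10.69 and 10.78 in PB22.

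AT5G60670 (L12) had differences of −1.12 and −1.16 (mean −1.14, adjusted p = 0.0224 with the block), in addition to its fall in total mRNA. AT1G27400, for the tunnel protein L17, had −0.62 and −1.40, the widest gap between replicates among the 6 (mean −1.01, adjusted p = 0.0476 with the block). Its PB38 arrays read 9.68 and 9.22, against 11.35 and 11.61 in PB22, and its total signal 11.08 and 11.04 in TOT38, against 11.29 and 11.14 in TOT22. AT4G17390 (L15), with 10.34 and 10.26 in PB38 against 12.29 and 12.49 in PB22, had −0.80 and −0.996 (mean −0.90, adjusted p = 0.0321 with the block). The last of the 6 was AT3G13580 of L7, at −0.76 (adjusted p = 0.0487 with the block).

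At the other end, both L4 mRNAs and AT2G01250 (L7) were the only ones of the 35 above 0 in both replicates, as were 33.6% of all features, whereas 30 were below 0 in both, as were 31.2%. AT5G02870 (L4) had 0.41 and 0.57 (mean 0.49, SE 0.16, adjusted p = 0.123 with the block), and was the 1 mRNA above 0 at an unadjusted p under 0.05. AT3G09630 (L4) had 0.36 and 0.36 (mean 0.36, SE 0.18, adjusted p = 0.247 with the block). AT2G01250 had 0.11 in both replicates, below its SE of 0.19. Thus the polysome-bound amounts of the L4 mRNAs fell somewhat less than their total amounts relative to the average of the array, and neither reached an adjusted p of 0.05.

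The same comparison can be read per seedling sample as polysome loading, the polysome-bound signal of a sample minus its total signal with 0 at the array average. In 27 of the 35 mRNAs both heated samples were loaded below both control samples, against 24.2% of all features, and in 2, the L4 pair, both were above, against 27.3%. With 2 samples against 2 an exact permutation test cannot give a two-sided p below 0.333. AT5G48760 had loadings of −0.80 and −0.86 at 38°C, against 0.49 and 0.58 at 22°C. AT3G14600 (L18a) had −0.95 and −1.26 at 38°C, against −0.40 and −0.07 at 22°C, so that its mean was the lowest of the 35 in both conditions. Its signal was 9.15 and 8.99 in PB38 against 10.83 and 11.02 in PB22, and 10.94 and 11.14 in TOT38 against 11.23 and 11.09 in TOT22, where the groups overlapped. AT5G02870 (L4) ran the other way, with 0.34 and 0.35 at 38°C against −0.07 and −0.22 at 22°C.

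**Figure D3:**
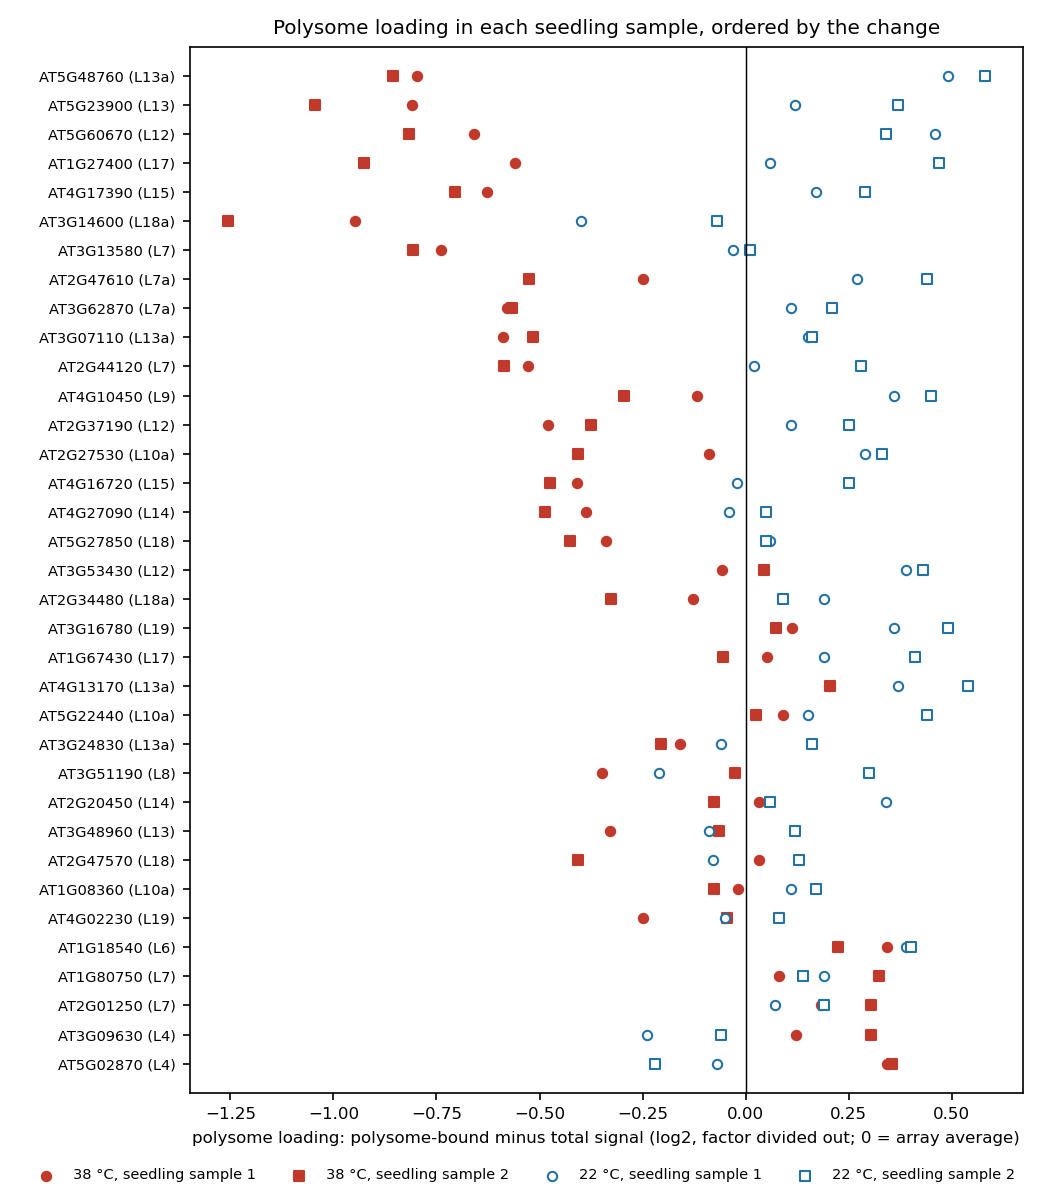
Polysome loading of the 35 mRNAs in each seedling sample (x axis, log2 polysome-bound minus total signal, 0 = array average; filled symbols, 2 samples at 38°C; open symbols, 2 samples at 22°C), ordered by the change. In 27 mRNAs both 38°C points lie below both 22°C points, and in the L4 pair above them.

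After heat, 4 mRNAs were loaded below the array average at an adjusted p under 0.05, against 0.993% of all features: AT3G13580 (L7), AT5G23900 (L13), AT5G48760 (L13a) and AT3G14600 (L18a). Their loadings at 38°C were −0.77, −0.93, −0.83 and −1.10, with adjusted p values between 0.0374 and 0.0409. None was above, where 0.238% of all features were. With the seedling sample as a block 15 were below, against 10.4% of all features, and 1 above, AT5G02870, against 11.3%. With the replicate number as a block instead, 10 were below, a count without the share of all features, which is not given here. At an unadjusted p under 0.05 without the block 15 were below, against 8.60% of all features, and AT5G02870 was above, 1 of 35 against 6.71%. The estimate was below 0 in 27 of the 35, against 49.9%. None of the 35 passed without the block when any 1 array was left out, or with only the TOT38 and PB38 arrays in the fit, and none passed with the block when a heated array was left out.

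At 22°C the loading estimate was above 0 in 31 of the 35, with a median of 0.16 against 0.00 over all features, where 49.4% of features were below 0. No feature passed either way in the fit with 1 mean per group (0%), in which 9 of the 35 were above 0 at an unadjusted p under 0.05 (3.63% of all features) and none below (5.01%). With the block 4 were above, against 3.73% of all features, and none below, against 4.76%: AT3G53430 (L12), AT4G13170 and AT5G48760 (L13a) and AT3G16780 (L19). None of the 35 passed with the block when any 1 of the 8 arrays was left out. The highest were AT5G48760 at 0.54 (SE 0.11), AT4G13170 at 0.46 (SE 0.14; 0.37 and 0.54 in the samples) and AT3G16780 at 0.42 (SE 0.12; 0.36 and 0.49). The lowest were AT3G14600 at −0.23 (SE 0.14), AT3G09630 at −0.15 (SE 0.12; −0.24 and −0.06) and AT5G02870 at −0.14 (SE 0.12).

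Paralogs of one family did not always move together. Across the 13 families with at least 2 measured mRNAs, the difference between heat effects spread over 1.13 in L13a, 0.96 in L13 and 0.88 in L7, and over 0.01 in L7a and 0.13 in L4, the 2 narrowest. The spread in L13 rests on AT3G48960, whose arrays read 2.70 and 2.40 in PB38, 3.17 and 3.37 in PB22, 3.87 and 3.36 in TOT38 and 3.26 and 3.25 in TOT22, the lowest of the 35. The standard error of a single difference ran between 0.16 and 0.32. Of the 27 pairs of paralogs, 25 held no dim mRNA. Of these 25, 9 differed by over 2 combined standard errors in the difference between effects, 6 in the total-mRNA effect and 9 in the polysome-bound effect. This description takes the errors of both genes as separate although they come from the same arrays. Pairs within a family can share a gene, so that the counts are not of independent pairs. The 9 in the difference came from L7, L12, L13a and L17, those of L13a all with AT5G48760. The 6 in total mRNA came from L7, L7a and L19. The share among pairs of other genes is not given here. Signals of different probe sets are not comparable as levels, and only their changes are set side by side here.

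**Figure D4:**
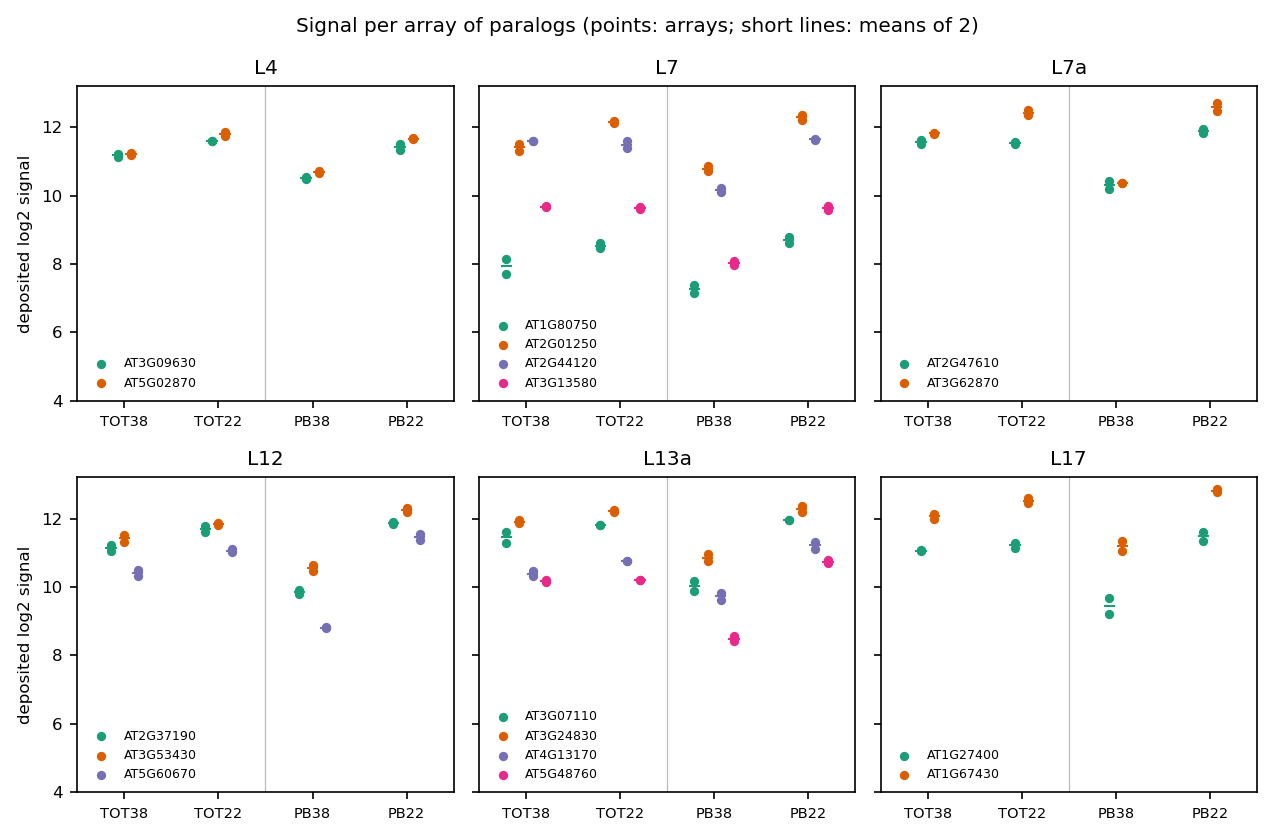
Deposited log2 signal (y axis) of the paralogs of 6 families on each of the 8 arrays, with TOT38 left of TOT22 and PB38 left of PB22 in every panel (points are arrays, short lines the means of 2; heights of different genes are not comparable). In L13a, AT5G48760 lies at 8.56 and 8.41 in PB38 against 10.70 and 10.78 in PB22 while its total signal hardly moves, and in L7 the genes part in total mRNA.

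In L13a the 4 paralogs lay closer together in total mRNA than on polysomes. Their total-mRNA effects spread over 0.34, between −0.37 and −0.02, and none passed the test, whereas the polysome-bound effects spread over 0.85. The total effect of −0.02 was that of AT5G48760, and those of its paralogs lay between −0.37 and −0.31. AT5G48760 changed by −2.26 on polysomes. AT3G07110 followed with −1.92 (SE 0.17), its arrays reading 10.19 and 9.88 in PB38 against 11.95 and 11.96 in PB22. AT3G24830 had 10.96 and 10.76 in PB38 against 12.18 and 12.36 in PB22, a change of −1.41 (SE 0.14). AT4G13170 had 9.84 and 9.62 in PB38 against 11.12 and 11.31 in PB22, a change of −1.48 (SE 0.14). The difference between effects was −1.36 and −0.71 in the first 2 and −0.23 and −0.25 in the other 2.

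L12 was also spread less in total mRNA than on polysomes, but there both effects had the same order. Total-mRNA effects were −0.64, −0.55 and −0.41 in AT5G60670, AT2G37190 and AT3G53430, and polysome-bound effects −2.65, −2.02 and −1.70. The total effects of AT5G60670 and AT2G37190 passed the test without the 2-fold requirement. In L7 it was the total mRNA that parted the paralogs. Their polysome-bound effects lay within 0.17 of each other, between −1.60 and −1.43, while the total effects were −0.74 in AT2G01250, −0.60 in AT1G80750, 0.04 in AT3G13580 and 0.11 in AT2G44120. AT2G44120 read 11.60 and 11.59 in TOT38 against 11.60 and 11.38 in TOT22, and 10.23 and 10.11 in PB38 against 11.62 and 11.66 in PB22. AT3G13580 read 9.67 and 9.68 in TOT38 against 9.61 and 9.67 in TOT22, and 8.09 and 7.98 in PB38 against 9.58 and 9.68 in PB22. AT1G80750 read 8.15 and 7.72 in TOT38 against 8.60 and 8.47 in TOT22, and 7.39 and 7.15 in PB38 against 8.79 and 8.61 in PB22. In this family, then, similar falls on polysomes stood beside unlike total effects. The total effect of AT2G01250 passed the test without the 2-fold requirement, and that of AT1G80750 narrowly missed it (adjusted p = 0.0555). Those of AT3G13580 and AT2G44120 were close to 0. The loading at 38°C was −0.77 in AT3G13580 and −0.56 in AT2G44120, against 0.24 in AT2G01250 and 0.20 in AT1G80750.

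In L7a and L19 the paralogs differed in total mRNA by about as much as on polysomes. AT3G62870 (L7a) had 11.80 and 11.83 in TOT38 against 12.36 and 12.49 in TOT22, a change of −0.61 (SE 0.13, adjusted p = 0.0183), and AT2G47610 had 11.52 and 11.62 in TOT38 against 11.57 and 11.50 in TOT22. Their polysome-bound effects were −2.21 and −1.58, and the gap between the 2 genes was about the same in both kinds of RNA (0.65 in total and 0.64 in polysome-bound mRNA), which left differences between effects of −0.73 and −0.74. In L19 the total effects were −0.78 in AT3G16780 and 0.11 in AT4G02230, and the polysome-bound effects −1.98 (8.08 on both PB38 arrays against 10.00 and 10.11 in PB22) and −0.92. Their differences between effects were −0.33 and −0.16, within the combined error.

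**Figure D5:**
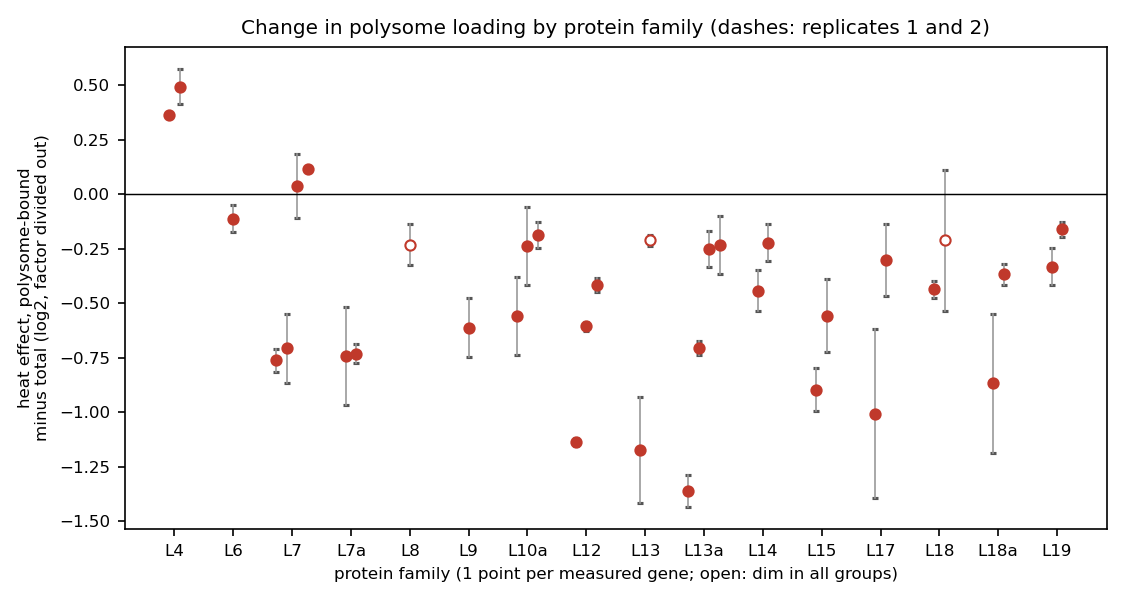
Difference between heat effects (y axis, log2, polysome-bound with the factor divided out minus total, 0 = array average) of each of the 35 mRNAs by family (x axis); points are means, dashes the replicates numbered 1 and 2, and open points mRNAs dim in all groups. L13a, L13 and L7 span the widest ranges, and L4 is the only family whose measured mRNAs all lie above 0.

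The remaining families lay between these. In L10a, where the paralog PGY1 (AT2G27530) is known from mutants with altered leaf polarity, the polysome-bound effects were −1.84 in PGY1, −1.63 in AT5G22440 and −1.21 in AT1G08360, and the total effects −0.42, −0.53 and −0.16. In L17, AT1G67430 had a total effect of −0.46 and a difference of −0.30, against −0.16 and −1.01 in AT1G27400. In L18a the difference was −0.87 in AT3G14600 and −0.37 in AT2G34480, and in L15 −0.90 in AT4G17390 and −0.56 in AT4G16720. L14 had −0.44 in AT4G27090 and −0.22 in AT2G20450, whose standard error was the largest of the 35 (0.32). AT4G10450 (L9), the only measured gene of its family, fell by 1.85 on polysomes and by 0.37 in total mRNA, of which only the first passed the test. AT5G27850 (L18) fell by 1.54 on polysomes with a total effect of −0.23 (adjusted p = 0.333).

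The 2 shared probe sets, kept out of all counts, had values inside the range of the group. That of the L6 pair AT1G74050 and AT1G74060 changed by −0.35 in total mRNA (adjusted p = 0.122) and by −1.72 in polysome-bound mRNA (adjusted p = 0.000174). That of the L9 pair AT1G33120 and AT1G33140 changed by −0.38 in total mRNA (adjusted p = 0.177) and by −1.88 in polysome-bound mRNA (adjusted p = 0.000256). Which gene of a pair the signal came from cannot be told.

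Families with a bacterial counterpart were compared with those without one, a grouping made after the values had been seen and given without a test. The dim mRNAs were left out, and with them L8, a family with a counterpart whose only measured mRNA is dim. The other families with a counterpart (L4, L7, L9, L10a, L12, L13a and L17) held 19 mRNAs, with a median difference between effects of −0.42. The 8 families without one (L6, L7a, L13, L14, L15, L18, L18a and L19) held 13 mRNAs, with −0.44. The medians in total mRNA were −0.41 and −0.25, and in polysome-bound mRNA −1.63 and −1.74. Both ends of the scale, AT5G48760 (−1.36) and AT5G02870 (0.49), lay among the families with a counterpart.

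Relative translation efficiency, the fold change in polysome-bound mRNA over that in total mRNA with the factor kept, gave the same order on a linear scale. Its average over all genes was 0.555, and the median of the 35 was 0.410, with 0.213 in AT5G48760 at the low end and 0.771 in AT5G02870 at the high end. By the class limits of the study, 1.5-fold from the average, 13 of the 35 fell into the repressed Class I (below 0.370), as did 3.77% of all genes. Of the 13, 9 did so in both replicates, and 0 of the 35 fell into the activated Class III. For the last 2 counts the share of all genes is not given here, so that neither is read as particular to the 35. These classes rest on no test and on the same arrays as the differences above.

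How far the replicates agreed across the 35 can be described by correlations over genes, which share the arrays and are not independent replicates. The difference between effects in the replicates numbered 1 and 2 correlated with r = 0.871 and rho = 0.858 (n = 35), the loading in the 2 heated samples with r = 0.909 and that in the 2 control samples with r = 0.690. The difference contains the loading at 22°C with a negative sign, with which it had r = −0.403.

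Other genes of the translation machinery give the setting. Of the higher-numbered 60S proteins, L21 to L40, 35 of 62 listed genes were measured, 33 fell on polysomes and 3 in total mRNA by the 2-fold rule, with a median difference of −0.43 and 8 below 0 with the block. Of the 40S proteins 48 of 99 were measured, 43 fell on polysomes and 2 in total mRNA, with a median difference of −0.28 and 3 below 0 with the block. For the acidic stalk proteins, 14 of 14 measured, the numbers were 11 and 0, with a median of −0.18 and 2 below 0. Both heated samples were loaded below both control samples in 27 of the 35 described here, against 28 of 35, 32 of 48 and 7 of 14 in these lists. The initiation factor and poly(A)-binding protein list had 3 of 22 genes measured, all of which fell on polysomes. Their median difference was 0.17, with 1 of the 3 below 0. Of 11 elongation factor genes 2 were measured, of which 1 fell and 1 rose on polysomes. The median difference of these 2 was −0.557, both were below 0, and 1 passed below 0 with the block. These lists differ in size and in mean level, and their differences from the 35 were not tested.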

How the data were processed

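ATH1 arrays were hybridised with total or polysome-bound RNA of 7-day-old seedlings at 38°C or 22°C. The authors summarised scanner files with RMA into the deposited log2 signals (the affy package, version not given in the sources used here), written to 2 decimals. The authors further scaled the PB38 arrays by the polysome content of each heated replicate relative to its control, which was divided out where stated. The precision is limited by 2 arrays a group. RMA forces equal distributions on the probe signals of the arrays before they are summarised and scaled, so that every change is relative to the array. The summarised signals were not equally distributed: their medians were 5.94 and 5.98 in TOT38 against 6.16 and 6.19 in TOT22.

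Probe sets were named through the platform annotation given with the data, updated with RefSeq TAIR10.1: of 22810, 13513 had 1 gene (13436 of them matched RefSeq), 503 several and 8794 none. Probe sets of the same gene were averaged. limma 3.58.1 in R 4.3.3 fitted 1 mean per group over 8 arrays (4 residual degrees of freedom), with Benjamini-Hochberg adjustment over 22653 features. Calls needed an adjusted p below 0.05, and heat effects a 2-fold change as well. Total and polysome-bound RNA of a number and temperature were isolated in parallel from the same seedling samples per the study's methods, and their deviations from the group means correlated with r = 0.762 at 38°C and 0.786 at 22°C. Between temperatures the deviations of a number correlated with r = 0.523 in total and 0.438 in polysome-bound mRNA, and the number was tried as a block too. The fit with the seedling sample as a block (2 residual degrees of freedom) is therefore printed where it changed a call. The script was tested on simulated data, and the outcome is not given here. The fits were also repeated with other normalisations, filters, blocks and left-out arrays.

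The genes, lists and tests were chosen with earlier results of these data known. Array values were named for mRNAs called in total mRNA, for the 5 lowest and 3 highest in the difference, for paralogs of the 3 widest and 2 narrowest families, and for the 3 lowest and 3 highest loadings at 22°C. Other genes were named after their values had been seen. No sequences are given.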

Additional observations from a re-analysis of the deposited data

Results flagged for a closer look

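The 6 results below had a heat effect on polysomes that differed from that in total mRNA in a test of the difference itself, with the seedling sample as a block (limma, adjusted over all features). The differences were −1.362 in AT5G48760 (L13a), −1.172 in AT5G23900 (L13), −1.137 in AT5G60670 (L12), −1.007 in AT1G27400 (L17), −0.897 in AT4G17390 (L15) and −0.762 in AT3G13580 (L7), each below 0 in both replicates. In the fit with 1 mean per group none of the 6 passed, with adjusted p values between 0.723 and 0.751.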

How the results depend on the processing

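Limits: with 2 arrays a group the count of mRNAs passing rests on single arrays, and RMA values give only relative changes. Centring on array medians left 0 mRNAs fallen in total mRNA (median effect −0.13), and cyclic loess also 0 (median −0.1703). Centring raised the total-mRNA effect of every feature alike, so that the gap between the 35 and all features stayed the same. The all-feature medians in these fits are not given here. Centring and loess turned the total effects of AT5G48760 (0.19 centred, 0.1098 loess), AT1G27400 (0.06 and 0.0037) and AT3G14600 (0.095 and 0.0316), and centring the difference of AT1G80750 (−0.025). With the factor divided out of polysome-bound mRNA 10 fell (median −0.762) and AT3G48960 had 0.148. Keeping the factor lowers all features of the PB38 arrays alike, so that passing below 0 is then not particular to the 35. With it kept, 34 differences passed below 0 (median −1.285) and 35 loadings at 38°C (median −1.075). The shares of all features in these fits are not given here. Estimates of the difference changed sign in AT2G01250 (−0.755), AT3G09630 (−0.505), AT5G02870 (−0.375) and AT1G80750 (−0.83).

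Of loadings at 38°C, 2 passed after centring, 0 with only the 2 groups compared, and 10 with the replicate number as a block, which changed no other count of mRNAs passing given here (1 and 29 fallen, 0 differences, 0 loadings at 22°C). The seedling sample as a block gave 6 differences below 0, 4 loadings above at 22°C and 15 below at 38°C. With that block and 1 array left out, differences below 0 numbered 0 to 6, 6 without replicate 1 and 3 without replicate 2 of either control group and 0 without a heated array (median −0.466 to −0.393). Loadings below at 38°C numbered 0 to 15, 0 without any heated array and 15 without any control array (median −0.3257 to −0.207), loadings above at 22°C numbered 0 without any 1 of the 8 arrays (median 0.11 to 0.25), and AT1G80750 ran between −0.0833 and 0.159.

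Leaving out 1 array without a block gave 0 to 1 mRNAs fallen in total mRNA (median −0.385 to −0.28), 29 to 31 on polysomes (median −1.75 to −1.54), 0 differences below 0 (median −0.517 to −0.338), 0 loadings above at 22°C (median 0.135 to 0.21), 0 below at 38°C (median −0.321 to −0.108), and 12 to 17 in Class I (median efficiency 0.383 to 0.441). The ranges among paralogs were then 1.08 to 1.18 in L13a, 0.695 to 1.225 in L13, 0.76 to 1.02 in L7, 0.03 to 0.23 in L4 and 0.025 to 0.12 in L7a. The difference of AT1G80750 ran between −0.177 and 0.253 and that of AT3G48960 between −0.467 and 0.043, and total effects ran between −0.01 and 0.15 in AT5G23900, −0.005 and 0.215 in AT2G44120 and −0.015 and 0.085 in AT2G47610. The cause of the changes was not tested.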
